A study of Homo sapiens with 12 samples.

Results

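The genes described here are 9 genes of MHC class I antigen presentation: the heavy chains HLA-B, HLA-C and HLA-E, the light chain B2M, the peptide transporter subunits TAP1 and TAP2, the loading chaperone TAPBP, and the immunoproteasome subunits PSMB8 and PSMB9. They were chosen by symbol, with no measured value in the rule, out of 33694 human gene identifiers listed in the count files. Earlier results of these data were known when the choice was made. Each of the 9 symbols matched 1 identifier, and all 9 passed the filter on low counts that left 10236 genes to test.

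The study measured polyadenylated RNA by 3′ tag sequencing (QuantSeq FWD, 1 tag near the 3′ end of a transcript) in a pair of human melanoma cell lines, the BRAF-inhibitor-resistant line A375-BIR and the A375 line. Dabrafenib, an inhibitor of mutant BRAF kinase, was given at 200 nM for 48 h, and the vehicle was 0.1% DMSO. Human counts were available for 3 A375-BIR libraries with dabrafenib, 3 A375-BIR libraries with DMSO, 3 A375 libraries with dabrafenib and 1 A375 library with DMSO. The labels do not say how A375-BIR was derived, and with 1 line of each kind drug resistance and any other difference between the lines cannot be told apart.

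Class I molecules carry short peptides from the inside of a cell to its surface, where CD8 T cells inspect them. The proteasome, in its interferon-inducible form with PSMB8 and PSMB9, cuts proteins into such peptides, TAP1 and TAP2 pump them into the endoplasmic reticulum, and TAPBP (tapasin) holds the empty heavy chain and B2M beside the transporter until a peptide binds. Most of these genes are induced by interferon through IRF and STAT factors and by the transactivator NLRC5, and loss of their expression is a known route of immune escape in melanoma.

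The 250 bases before the transcript start are shown for 6 members, whose windows all hold an IRF-type match. Class I genes are known to respond to interferon through such motifs. They are known to respond to NF-kB through kB-type motifs, which the windows of HLA-C and TAP2 do not hold. Capitals mark matches, on either strand, to the IRF-type motif AANNGAAA, to the kB-type motif (GGG, any 2 bases, TT, any base, CC) and to the CCAAT box, the binding site of NF-Y. Overlapping matches run together. Sequences are from RefSeq, build GRCh38.p14, written 5′ to 3′ on the strand of the gene. HLA-B lies on the minus strand (chr6:31357180-31357429), HLA-C on the minus strand (chr6:31272093-31272342), B2M on the plus strand (chr15:44711267-44711516), TAP1 on the minus strand (chr6:32853705-32853954), TAP2 on the minus strand (chr6:32838740-32838989) and TAPBP on the minus strand (chr6:33314079-33314328).
HLA-B: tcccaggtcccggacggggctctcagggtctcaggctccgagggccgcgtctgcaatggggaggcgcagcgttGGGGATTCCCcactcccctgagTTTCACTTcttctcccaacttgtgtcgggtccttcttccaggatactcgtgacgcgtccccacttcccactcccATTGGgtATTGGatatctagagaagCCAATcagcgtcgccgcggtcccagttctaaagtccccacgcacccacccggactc
HLA-C: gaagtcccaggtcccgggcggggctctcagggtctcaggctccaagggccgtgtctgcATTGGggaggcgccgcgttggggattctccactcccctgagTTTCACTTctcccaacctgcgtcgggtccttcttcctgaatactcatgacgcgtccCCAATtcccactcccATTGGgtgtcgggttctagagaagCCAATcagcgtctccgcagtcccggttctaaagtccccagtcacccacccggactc
B2M: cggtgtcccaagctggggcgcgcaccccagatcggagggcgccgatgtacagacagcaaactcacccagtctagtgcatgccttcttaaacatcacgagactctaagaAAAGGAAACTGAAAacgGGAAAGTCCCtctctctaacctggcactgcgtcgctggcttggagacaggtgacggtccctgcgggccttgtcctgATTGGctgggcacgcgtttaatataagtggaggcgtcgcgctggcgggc
TAP1: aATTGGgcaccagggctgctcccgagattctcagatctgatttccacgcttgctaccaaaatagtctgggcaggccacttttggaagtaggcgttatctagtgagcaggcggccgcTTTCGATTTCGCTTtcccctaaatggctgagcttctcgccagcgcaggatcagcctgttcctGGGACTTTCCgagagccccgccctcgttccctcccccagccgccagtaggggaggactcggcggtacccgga
TAP2: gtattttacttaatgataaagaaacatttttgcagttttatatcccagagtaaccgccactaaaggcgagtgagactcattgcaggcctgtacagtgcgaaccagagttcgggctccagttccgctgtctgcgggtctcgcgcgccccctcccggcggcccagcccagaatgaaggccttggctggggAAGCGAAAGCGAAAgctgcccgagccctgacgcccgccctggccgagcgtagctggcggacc
TAPBP: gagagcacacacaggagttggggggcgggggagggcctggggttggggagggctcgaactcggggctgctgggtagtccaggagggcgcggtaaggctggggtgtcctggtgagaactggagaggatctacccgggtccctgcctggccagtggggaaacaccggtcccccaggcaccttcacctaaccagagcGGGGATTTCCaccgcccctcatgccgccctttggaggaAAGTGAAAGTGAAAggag

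HLA-B and HLA-C share 1 IRF-type match at almost the same place, bases 155 to 148 before the start of HLA-B and bases 151 to 144 before that of HLA-C. The kB-type match of HLA-B lies 177 to 168 bases before the start. The like stretch of the HLA-C window, ggggattctc, differs from it by 1 base and misses the pattern. B2M, TAP1, TAP2 and TAPBP each hold 2 overlapping IRF-type matches, those of TAPBP within 18 bases of the start. Of the 8 members with a window in the RefSeq table, 6 held the IRF-type motif, which 20.3% of 35114 windows of that length held. The kB-type motif stood in 4 of the 8 members and in 5.07% of all windows, and the CCAAT box in 5 of the 8 and in 32.0% of all windows. PSMB8 held none of the 3 motifs in its window and PSMB9 only a CCAAT box, 243 to 239 bases before its start. TAP1 and PSMB9 are read away from each other from starts 488 bases apart. Their windows overlap, and the CCAAT box of PSMB9 and that of TAP1 are the same bases, counted for both. The IRF-type and kB-type matches of TAP1 also lie between these starts, beyond the PSMB9 window. Of 22 interferon-induced genes with a window, 21 held the IRF-type motif, 4 the kB-type motif and 9 the CCAAT box. There a gene counted if any of its windows held the motif, while each member was read in 1 window and the background counts single windows. These shares are therefore unlike measures. A match is a run of letters and does not show that a factor binds there, and HLA-E is without a window here.

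**Figure D1:**
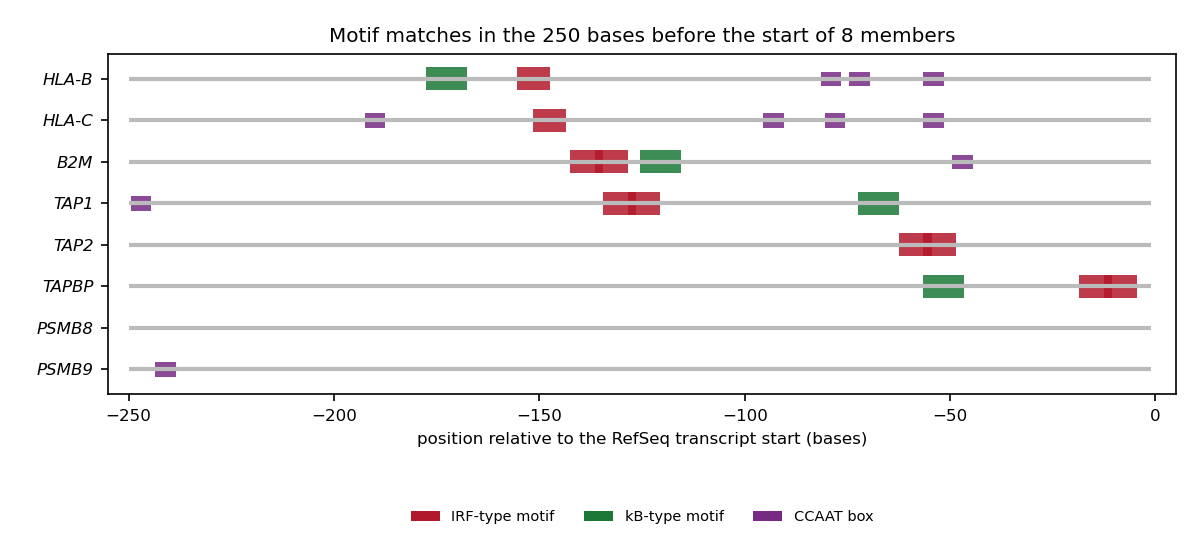
Matches to the 3 motifs in the 250 bases before the RefSeq transcript start of 8 members (x axis, bases relative to the start; 1 row per gene, grey line the window, coloured blocks the matches). B2M, TAP1, TAP2 and TAPBP each show 2 overlapping IRF-type matches, HLA-B and HLA-C 1 each at a like distance, and PSMB8 none.

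Levels are counts per 1000000 counts (CPM) after TMM scaling, which sets library totals on a common scale. A gene is called changed at a Benjamini-Hochberg adjusted p under 0.05 in edgeR's quasi-likelihood test over all 10236 genes. All log2 values in the comparisons are differences fitted by that test with their standard errors (SE). The spread of a gene is shared across the 4 groups, with 6 residual degrees of freedom. It is also drawn towards the spread of all genes tested, so a p-value does not rest on the gene's own 6 alone. Each group enters 2 of the 4 comparisons between pairs of groups, so these share libraries. In cultures, fewer cells with a transcript and less of it per cell cannot be told apart.

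Total counts on genes ranged over 391210 to 971347 in A375-BIR with dabrafenib, 579288 to 1100917 in A375-BIR with DMSO and 198690 to 493398 in A375 with dabrafenib, and came to 1999840 in the A375 DMSO library. The deposited name of that library carries another number than the names of the other 9. It is called the run number here, and the labels do not say what it stands for. That library also had a lower share of reads on no gene (20.1%, against 28.6% to 31.0% in the others). Its share of reads placed at more than 1 site was higher (52.5%, against 40.0% to 49.4%). Its differences from A375-BIR with DMSO and from A375 with dabrafenib therefore cannot be told apart from whatever else set this library apart. Mitochondrial genes took 4.63% to 7.21% of counts in A375-BIR and 10.7% to 15.1% in A375. In A375-BIR with dabrafenib, replicate 2 stood apart from replicates 1 and 3, but so did these from each other, with a chi-square per gene of 4.26 to 4.89 between pairs, against 1.09 to 2.45 within the other groups. Melanoma and melanocyte markers summed to 235.5 to 323.6 CPM in A375-BIR with dabrafenib and 207.6 to 233.6 in A375-BIR with DMSO. The sums were 2984 to 3549 in A375 with dabrafenib and 2340 in A375 with DMSO. None of the 10 markers was at 0 in all libraries. However, MLANA and TYRP1 had 1 and 5 counts over all libraries, and TYR had 0 in both A375-BIR groups. Leukocytes express class I genes strongly, and their markers other than CD68 (PTPRC, CD3E and 11 more) had 0 to 4 counts in all per library.

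With dabrafenib present, A375-BIR held less RNA of the heavy chains HLA-B and HLA-E than A375 and more of the chaperone TAPBP. The other 6 members did not pass the test. The members called were thus 1 higher and 2 lower of 9, while 22.6% of all genes tested were called higher and 20.2% lower, so the count of members is not above the background. The members' median difference was -0.52 on the log2 scale, against 0.043 over all genes tested.

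HLA-B, a classical heavy chain that presents peptides to CD8 T cells, stood at 202.8, 386.6 and 243.3 CPM in A375-BIR with dabrafenib, against 447.5, 450.8 and 490.8 CPM in A375 with dabrafenib. The ranges did not overlap, although replicate 2 of A375-BIR came close. HLA-B was 1.67-fold lower in A375-BIR (log2 difference -0.74, SE 0.19, edgeR adjusted p = 0.00173), and the call was kept under every alternative that was run. The log2 difference lay between -1.07 without replicate 2 of A375-BIR with dabrafenib and -0.53 without replicate 1.

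HLA-E, a heavy chain that shows leader peptides of other class I molecules to receptors on natural killer cells, had 84.7, 129.5 and 93.2 CPM in A375-BIR with dabrafenib and 152.6, 147.3 and 174.9 CPM in A375 with dabrafenib. Again every A375-BIR library was below every A375 library, as in HLA-B. Over all genes tested, 22.7% lay wholly lower in this way and 25.5% wholly higher. The log2 difference was -0.62 (SE 0.21, edgeR adjusted p = 0.0178). The call was lost with DESeq2 (adjusted p = 0.0615) and without replicate 1 of A375-BIR (0.112), replicate 1 of A375 (0.0526) or replicate 3 of A375 (0.0502), at log2 differences of -0.64 to -0.45.

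HLA-C was sparse, with 21 counts in A375-BIR and 17 in A375 over 3 libraries each. Its levels were 8.57, 12.2 and 12.9 CPM in A375-BIR with dabrafenib and 16.5, 17.9 and 5.64 CPM in A375 with dabrafenib, overlapping groups with a log2 difference of -0.52 (SE 0.49, edgeR adjusted p = 0.409). The last 500 bases of HLA-B and HLA-C are 92.6% identical in the GENCODE 29 transcripts, with a longest shared run of 62 bases, where reads were 100 bases long. How such reads were divided or dropped was not tested.

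B2M, the light chain that every class I molecule needs to fold, gave 1011, 1697 and 866.9 CPM in A375-BIR with dabrafenib, against 1464, 1580 and 1692 CPM in A375 with dabrafenib. Replicate 2 of A375-BIR was the highest of all 10 libraries, and the other 2 lay below every A375 dabrafenib library. The log2 difference of -0.40 (SE 0.20) did not pass (edgeR adjusted p = 0.099), and without that replicate it was -0.74 and did (0.000303).

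TAP1 stood at 28.6, 34.99 and 36.2 CPM in A375-BIR with dabrafenib and at 59.8, 55.8 and 0 CPM in A375 with dabrafenib. The last is 0 of 198690 counts in the shallowest library, which allows up to 16.9 CPM on the TMM scale, and its A375 sister libraries held 29 and 25 TAP1 counts. The log2 difference of -0.55 (SE 0.36) did not pass with all libraries (edgeR adjusted p = 0.231) and did without that one, at -0.85 (0.0229). TAP2, the other subunit of the transporter, had 36.2, 45.5 and 28.5 CPM in dabrafenib-treated A375-BIR and 37.1, 20.1 and 33.8 CPM in dabrafenib-treated A375, with overlapping ranges and a log2 difference of 0.32 (SE 0.32). In GENCODE 29, 32.3% of the exon bases of TAP2 are shared with AL669918.1 on the same strand, so counts in that stretch could go to either gene.

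TAPBP, which edits the bound peptide, had 142.8, 110.2 and 152.7 CPM in A375-BIR with dabrafenib and 105.2, 89.3 and 84.6 CPM in A375 with dabrafenib. The groups did not overlap, by a narrow margin. TAPBP was 1.42-fold higher in A375-BIR (log2 difference 0.51, SE 0.21, edgeR adjusted p = 0.0464). The call rests close to its threshold: it was lost with DESeq2 (0.101) and in 9 of 10 fits that left out 1 library, all with TAPBP higher, at log2 differences of 0.44 to 0.62.

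PSMB8 was at 19.04, 33.2 and 20.7 CPM in A375-BIR with dabrafenib and 24.7, 22.3 and 11.3 CPM in A375 with dabrafenib, and PSMB9 at 22.8, 38.5 and 12.9 CPM, against 49.5, 31.2 and 22.6 CPM. Both pairs of groups overlapped. The log2 differences were 0.14 (SE 0.43) for PSMB8 and -0.55 (SE 0.35) for PSMB9, neither called. Without replicate 2 of A375-BIR with dabrafenib, PSMB9 passed at -0.90 (edgeR adjusted p = 0.0396). The exons of PSMB8 share 20.6% of their bases with PSMB8-AS1 and 139 bases with PSMB9, in both cases on the opposite strand, and the strand setting of the counting is not given in the sources used here.

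**Figure D2:**
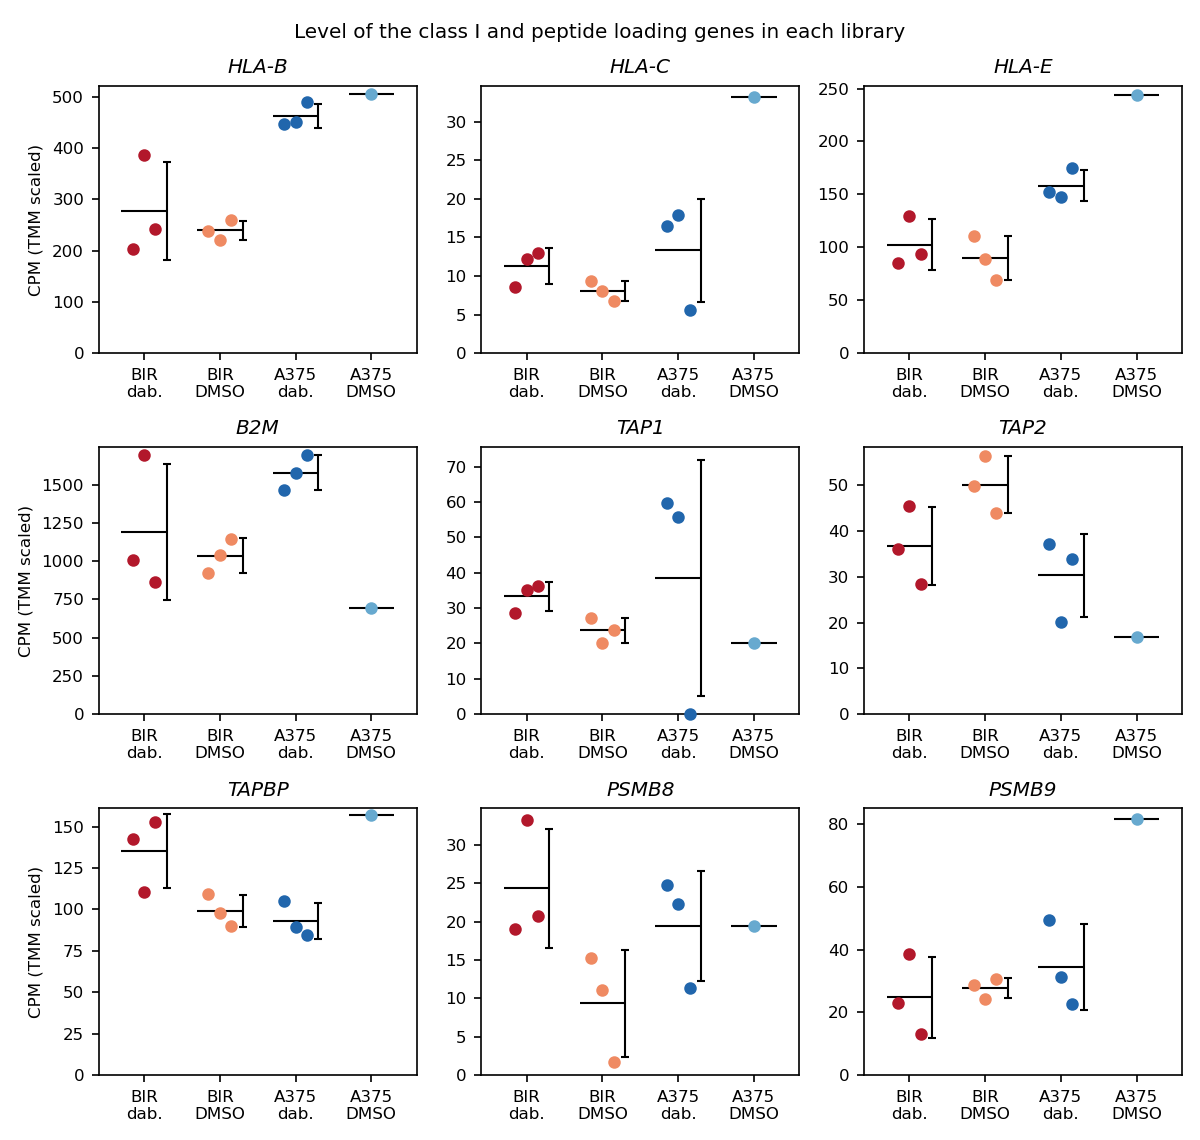
Level of each member in every library (y axis, CPM after TMM scaling, from 0; x axis, the groups A375-BIR dabrafenib, A375-BIR DMSO, A375 dabrafenib and A375 DMSO; points are libraries, lines group means, bars SD). For HLA-B and HLA-E every A375-BIR point lies below every A375 point, and for B2M the single A375 DMSO library, at 692.6, lies below all others.

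The genes around the members did not share 1 direction in A375-BIR with dabrafenib. Of 30 interferon-induced genes listed, 26 were tested, and 18 of these were called higher in A375-BIR and 1 called lower, with a median log2 difference of 2.71. With the genes that had 0 counts in a group set at their bound the median was also 2.71. ISG15, a ubiquitin-like protein, averaged 136.5 CPM in A375-BIR with dabrafenib and 4.74 CPM in A375 with dabrafenib (log2 difference 4.86, SE 0.40, edgeR adjusted p = 1.55e-12). IFITM2, IFI27 and IFIT3, an antiviral membrane protein and 2 more targets of interferon, were higher by 3.38, 4.32 and 2.81 on the log2 scale. In A375 with dabrafenib ISG15 had 5 counts and IFI27 10 over the 3 libraries, so the sizes of these 2 differences are loosely fixed. IFITM2 and IFIT3 had 31 and 32 counts there. Every fit that left out 1 library called 17 to 19 genes of the list higher.

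Of 7 tested proteasome genes outside the members, 4 were higher in A375-BIR and none lower, with a median log2 difference of 0.78. The 2 subunits of the PA28 activator led them, PSME1 at 227.9 CPM in A375-BIR with dabrafenib and 73.7 CPM in A375 with dabrafenib (log2 difference 1.61, SE 0.21, edgeR adjusted p = 9.57e-08), and PSME2 with a log2 difference of 1.16. PSMB7, a constitutive catalytic subunit, and POMP, a proteasome assembly factor, followed at 0.90 and 0.78. Among 4 tested loading genes only CALR, the chaperone calreticulin, was called, averaging 469.5 CPM in dabrafenib-treated A375-BIR and 235.2 CPM in dabrafenib-treated A375 (log2 difference 0.99, SE 0.18, edgeR adjusted p = 2.66e-05).

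Of 12 genes for class I transcription factors, 3 were called higher and 2 called lower in treated A375-BIR, with a median log2 difference of 0.088. These counts are near the background of 22.6% of all genes called higher and 20.2% lower. NLRC5, the class I transactivator, had 28 counts in the 3 A375-BIR libraries and 2 in the 3 A375 libraries, a scaled ratio of 7.74 with a 95% counting interval of 1.95 to 67.04. Per library that was 19.04, 6.998 and 10.4 CPM in A375-BIR with dabrafenib and 0, 4.46 and 0 CPM in A375 with dabrafenib, without overlap, but its edgeR call was lost without replicate 1 of either group. IRF1, an interferon-induced activator, was higher by 0.93 (SE 0.33, edgeR adjusted p = 0.0232), a call lost with DESeq2 (0.0822) and without replicate 1 (0.66, 0.196) or replicate 2 (0.0615) of A375. With counts thinned to the smallest total the IRF1 difference was 0.12 (0.859). RFXANK, a subunit of the RFX complex, was higher by 2.04, from 31 counts in A375-BIR and 4 in A375, a call lost without replicate 1 of A375. CIITA, the class II transactivator, was lower by far, with means of 4.48 CPM in treated A375-BIR and 42.3 CPM in treated A375 (log2 difference -3.25, SE 0.46, edgeR adjusted p = 3.09e-07). Leaving out 1 library left 0 to 3 of these factors called higher and 1 to 2 lower. The interferon receptor chain IFNAR1 (1.39) was higher and STAT2 (-1.29), which carries the type I interferon signal, was lower. The IFNAR1 call was lost without replicate 1 of A375 (0.0798), and no interferon gene of the 6 listed had enough counts to test.

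**Figure D3:**
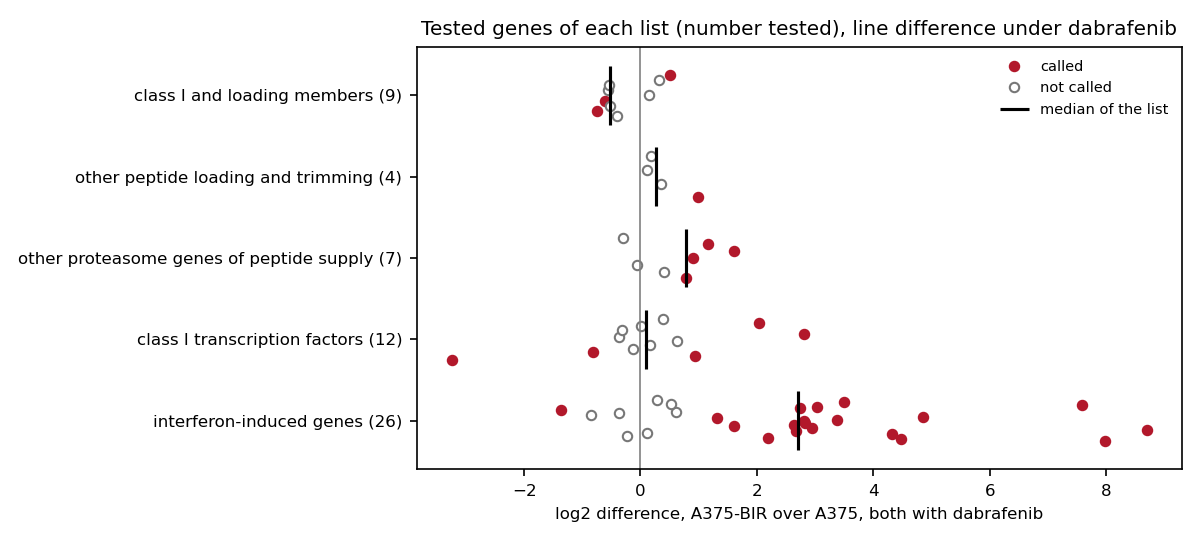
Log2 difference of A375-BIR over A375, both with dabrafenib (x axis), for every tested gene of 5 lists (rows, number tested in brackets; filled points called, open points not called, black line the list's median). The members' median is -0.52 and that of the interferon-induced genes 2.71; points beyond about 5 are genes with almost no counts in A375, whose fitted value is no bound.

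With DMSO, the same line comparison rests on 1 A375 library with another run number, assumed in the fit to vary like the other groups. HLA-B, HLA-C, HLA-E, TAPBP and PSMB9 were lower in A375-BIR with DMSO and TAP2 was higher, against a background of 26.7% of genes called lower and 25.1% higher. B2M, TAP1 and PSMB8 did not pass. The members' median log2 difference was -0.86, against 0.0052 over all genes.

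HLA-B stood at 239.0, 220.8 and 259.0 CPM in A375-BIR with DMSO, against 505.5 CPM in the A375 DMSO library (log2 difference -1.08, SE 0.23, edgeR adjusted p = 0.000204). HLA-C was at 9.32, 8.06 and 6.77 CPM in A375-BIR with DMSO and 33.3 CPM in A375 with DMSO (log2 difference -1.98, SE 0.40, edgeR adjusted p = 8.69e-05). HLA-E was at 111.0, 88.7 and 69.4 CPM in A375-BIR with DMSO and 243.6 CPM in A375 with DMSO (log2 difference -1.41, SE 0.23, edgeR adjusted p = 3.23e-06). In all 3 heavy chains the single A375 library lay above every A375-BIR library, by the least in HLA-B, as 42.6% of all genes tested did.

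PSMB9 ran the same way, with 28.8, 24.2 and 30.5 CPM in A375-BIR with DMSO and 81.6 CPM in A375 with DMSO (log2 difference -1.56, SE 0.30, edgeR adjusted p = 3.62e-05). TAP2 ran the other way, as 41.8% of all genes did without overlap, with 49.996, 56.4 and 44.0 CPM in A375-BIR with DMSO and 16.95 CPM in A375 with DMSO (log2 difference 1.57, SE 0.34, edgeR adjusted p = 0.000242), a call lost with counts thinned to the smallest total (1.75, 0.0835). TAPBP was at 109.3, 97.8 and 89.7 CPM in A375-BIR with DMSO and 157.0 CPM in A375 with DMSO (log2 difference -0.65, SE 0.22, edgeR adjusted p = 0.0142), the reverse of its order under dabrafenib. That call was lost with DESeq2 (0.0744), and with all libraries thinned to the smallest total its log2 difference was 0.026.

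B2M gave 920.3, 1041 and 1146 CPM in A375-BIR with DMSO and 692.6 CPM in A375 with DMSO, a log2 difference of 0.58 (SE 0.28) that did not pass (edgeR adjusted p = 0.0844). TAP1 stood at 27.1, 20.2 and 23.7 CPM in A375-BIR with DMSO and 20.1 CPM in A375 with DMSO, nearly level. PSMB8 had 15.3, 11.1 and 1.69 CPM in A375-BIR with DMSO and 19.5 CPM in A375 with DMSO, where the lowest value is of the shallowest library of its group.

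Around the members, the class I-like genes MICA (-1.09) and MR1 (-1.12) were lower in A375-BIR with DMSO. Both of these calls were lost with DESeq2 (0.144 and 0.164). Of the 26 interferon-induced genes, 16 were higher and 6 lower, with a median of 1.47. The smallest p were those of IFI27 (4.97), IFITM2 (3.24) and ISG15 (3.32). In the A375 library IFI27 had 6 counts and ISG15 had 19. Proteasome genes were 0 higher and 2 lower of 7, and loading genes 1 higher and 2 lower of 4, ERAP1, a peptide-trimming protease, being higher (1.17) and PDIA3 (-0.89) and CALR (-0.57), chaperones of the loading complex, lower. The calls of ERAP1 (0.0848) and CALR (0.0522) were lost with DESeq2. CIITA had 3 counts in the 3 A375-BIR libraries and 90 in the A375 library, a scaled ratio of 0.0192 with a 95% counting interval of 0.00389 to 0.058. NLRC5 averaged 12.2 CPM in A375-BIR with DMSO and stood at 23.9 CPM in A375 with DMSO (log2 difference -0.91, SE 0.45, edgeR adjusted p = 0.0845).

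**Figure D4:**
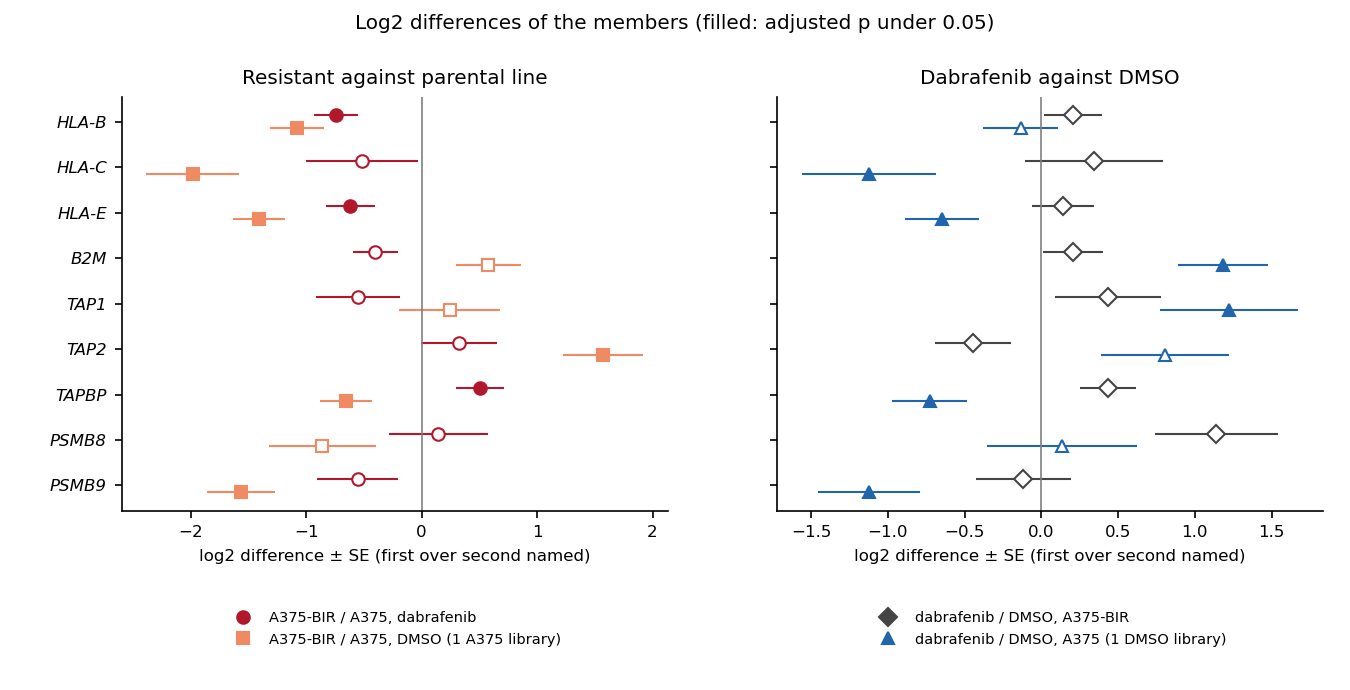
Log2 difference with its SE for each member (left, A375-BIR over A375 with dabrafenib and with DMSO; right, dabrafenib over DMSO in A375-BIR and in A375; filled symbols have an edgeR adjusted p under 0.05). HLA-B and HLA-E lie below 0 in both line comparisons, and no member is filled for the A375-BIR response.

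In A375-BIR, 48 h of dabrafenib changed none of the 9 members at an adjusted p under 0.05 in edgeR, where 1.36% of all genes were called higher and 1.10% lower. DESeq2 also called 0, giving no adjusted p for HLA-C and PSMB8, and 2 members had an unadjusted edgeR p under 0.05. These were PSMB8, with a log2 difference of 1.14 (SE 0.40, edgeR adjusted p = 0.128), and TAPBP, with 0.43 (SE 0.18, edgeR adjusted p = 0.237). By unadjusted p they ranked 544 and 955 of the 10236 genes tested, so at least 955 genes were under that limit. The median over the members was 0.21, against 0.018 over all genes.

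PSMB8 averaged 24.3 ± 7.76 CPM with dabrafenib and 9.34 ± 6.95 CPM with DMSO in A375-BIR (SD, n = 3 each), from 47 and 30 counts. TAPBP averaged 135.2 ± 22.2 CPM with dabrafenib and 98.9 ± 9.85 CPM with DMSO, and TAP1 33.3 ± 4.12 CPM with dabrafenib and 23.7 ± 3.48 CPM with DMSO. In these 3 genes every dabrafenib library lay above every DMSO library, as 9.07% of all genes did.

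HLA-B, HLA-E and B2M had log2 differences of 0.21 (SE 0.19), 0.14 (SE 0.20) and 0.21 (SE 0.19), and in each of them replicate 2 with dabrafenib was the highest A375-BIR library. Without it the differences were -0.12, -0.076 and -0.13. TAP2 was at -0.44 (SE 0.25), HLA-C at 0.34 (SE 0.45), TAP1 at 0.43 (SE 0.35) and PSMB9 at -0.12 (SE 0.31). Of the pathway lists only 2 genes were called, XAF1, an interferon-induced factor (2.94, SE 0.77, edgeR adjusted p = 0.0272), and PSMB6, a constitutive proteasome subunit (-0.73, SE 0.20, edgeR adjusted p = 0.0415). The PSMB6 call was lost with DESeq2 (0.146) and with counts thinned to the smallest total (0.527). It was also lost in several fits that left out 1 library, such as those without A375-BIR DMSO replicate 1 (0.183) or 3 (0.254). The XAF1 call was lost without any 1 of the DMSO replicates (0.0712 to 0.128).

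In A375, dabrafenib went with higher B2M and TAP1 and with lower HLA-C, HLA-E, TAPBP and PSMB9 against the single DMSO library, while 17.9% of all genes were called higher and 20.7% lower. HLA-B, TAP2 and PSMB8 did not pass. The same A375 DMSO library enters this comparison and the DMSO comparison of the lines, so they are not independent. DESeq2 called only B2M of the 9.

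B2M averaged 1579 ± 114.1 CPM with dabrafenib (SD, n = 3), against 692.6 CPM with DMSO, and was 2.27-fold higher (log2 difference 1.19, SE 0.29, edgeR adjusted p = 0.0016). TAP1 was higher by 1.22 on the log2 scale (SE 0.45, edgeR adjusted p = 0.0304), at 59.8, 55.8 and 0 CPM with dabrafenib and 20.1 CPM with DMSO, so that 1 of the 3 libraries lay below the DMSO value. That call was lost without replicate 1 (0.199) or replicate 2 (0.138) of the dabrafenib libraries, which carry all its counts.

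PSMB9 was lower at 34.4 ± 13.7 CPM with dabrafenib, against 81.6 CPM with DMSO (log2 difference -1.12, SE 0.33, edgeR adjusted p = 0.00695). HLA-C (-1.12, SE 0.44), HLA-E (-0.65, SE 0.24) and TAPBP (-0.73, SE 0.25) had edgeR adjusted p of 0.0396, 0.0322 and 0.018, and lost their calls in 5, 2 and 1 of 9 fits that left out 1 library. The PSMB9 call was also lost in 1 of 9, without dabrafenib replicate 2 (-0.97, 0.0541). Thinned to the smallest total, TAPBP had a log2 difference of 0.20. HLA-B, at 463.0 ± 24.1 CPM with dabrafenib and 505.5 CPM with DMSO, had a log2 difference of -0.13 (SE 0.24, edgeR adjusted p = 0.699).

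Around the members, proteasome genes were mostly lower in A375 with dabrafenib than with DMSO. Of 7 tested proteasome genes 5 were called lower and none higher, with a median log2 difference of -1.33, among them PSMB7 (-1.33), PSME1 (-1.41), POMP (-1.42) and PSMB6 (-1.37). CALR (-1.24) and PDIA3 (-0.90) were lower and ERAP1 (1.39) was higher, the last a call lost with DESeq2 (0.0671). Interferon-induced genes were 2 higher and 7 lower of 26, with a median of -0.58, IFITM3 (-1.56) and ISG20 (-2.40) among the lower. NLRC5 had 2 counts over 3 libraries with dabrafenib and 38 counts in the DMSO library, a scaled ratio of 0.0755 with a 95% counting interval of 0.00882 to 0.292.

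The difference between the responses of the lines, A375-BIR minus A375, was tested in the same fit and also rests on the single A375 DMSO library. It passed for 2 of 9 members, 1 higher and 1 lower. Over all genes tested 12.7% were called higher and 9.87% lower, so the count of members is near the background. TAPBP had log2 differences of 0.43 in A375-BIR and -0.73 in A375, and the difference of the responses was 1.16 (SE 0.31, edgeR adjusted p = 0.00566). That difference was called in every fit that left out 1 library, but with counts thinned to the smallest total it was 0.34 (0.779). B2M had 0.21 in A375-BIR and 1.19 in A375, a difference of -0.98 (SE 0.35, edgeR adjusted p = 0.0372), a call lost with DESeq2 (0.0605) and in 7 of 9 fits that left out 1 library (0.0508 to 0.0847). TAP2 (-1.25, SE 0.48, edgeR adjusted p = 0.0576), HLA-E (0.79, SE 0.32, 0.0666) and HLA-C (1.47, SE 0.63, 0.0918) came near the threshold without passing it.

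Seen across the 4 groups, the members fell into different orders. The order of group means was A375 with DMSO, A375 with dabrafenib, A375-BIR with dabrafenib and A375-BIR with DMSO in HLA-B, HLA-C and HLA-E, with overlap between the 2 A375-BIR groups in each and, in HLA-C, also between the lines under dabrafenib. B2M ran highest in A375 with dabrafenib and lowest in A375 with DMSO, and TAP2 highest in A375-BIR with DMSO and lowest in A375 with DMSO. Over the 10 libraries the log2 CPM of HLA-B and HLA-E had the highest correlation of any 2 members (Pearson r = 0.890). HLA-C and TAP2 had the lowest (-0.744). These values are a description over libraries that share lines and run numbers. HLA-B and B2M, partners in 1 molecule, had r = 0.424, and TAP1 and TAP2, partners in 1 transporter, r = -0.068.

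Among 7546 genes with a mean of at least 20 CPM, those most like the members' mean standardised profile over the 10 libraries were E2F3 (r = 0.923), ULK1 (0.917), NUFIP1 (0.875), GGA3 (0.863), SLC3A2 (0.850), TMEM248 (0.846), CANT1 (0.820) and CPPED1 (0.819). E2F3, a cell cycle transcription factor, averaged 76.2 CPM in A375-BIR with dabrafenib, 55.5 in A375-BIR with DMSO, 103.1 in A375 with dabrafenib and 121.2 in A375 with DMSO. None of the 8 is a gene of the lists above.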

How the data were processed

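RNA libraries were 3′ tag libraries (QuantSeq FWD) read as single reads, per the labels' protocols. The authors deposited raw read counts per gene, 1 file per library, with no normalization; the build is hg38 per the submitters' processing notes, while the sources used here name no aligner, counter, annotation or strand setting. The files of A375 DMSO replicates 2 and 3 list 31053 mouse identifiers against their labels and were left out. Lines that name no gene were left out of totals; reads on no gene were 20.1% to 31.0% and reads placed at more than 1 site 40.0% to 52.5% of each human file. Symbols came from GENCODE 29 and gene tables (33132 of 33694 identifiers).

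Counts were tested in R 4.3.3 with edgeR 4.0.16 (TMM, filterByExpr with a minimum count of 10, robust glmQLFit, glmQLFTest; 1 coefficient per group; Benjamini-Hochberg over 10236 genes; threshold 0.05), which was first tested on simulated data. SE is the log2 difference over the root of F. DESeq2 1.42.0, RLE scaling, no filter, a mean count of at least 50, only the groups compared, counts thinned to the smallest total, a replicate block and leaving out each library were tried. Totals of 198690 to 1999840 counts put 3 counts, the limit a count of 0 allows, at 1.88 to 16.9 CPM after TMM scaling; intervals and limits cover counting error only. Libraries of a group are separate samples in the labels, but whether from separate cultures is not said. The p-values thus measure the spread between these samples, moderated over all genes tested.

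All 9 members and NLRC5 are named throughout, and of each list up to 4 genes with the smallest p among those called, chosen by rule, and some results of other genes are not reported here; likeness is Pearson's r of log2 CPM (prior count 2). Members and lists were chosen with earlier results of these data known.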

Additional observations from a re-analysis of the deposited data

Results flagged for a closer look

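B2M and TAPBP were picked out because their responses to dabrafenib differed between the lines by the test of that difference. For B2M the response of A375-BIR minus that of A375 was -0.98 on the log2 scale, and for TAPBP it was 1.16. The B2M call was lost with DESeq2 and in 7 of 9 fits that left out 1 library. The TAPBP call was kept in all of those fits but lost with counts thinned to the smallest total. NLRC5 was picked out in the same way at a fitted 3.72, which is no bound because A375 with dabrafenib held 2 counts in all, and the call was lost without replicate 1 of A375-BIR with dabrafenib. All 3 rest on the single A375 DMSO library, which has another run number and whose part in them was not tested.

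The files of A375 DMSO replicates 2 and 3, outside every comparison here, hold 224221 and 652439 counts on mouse gene identifiers although their labels name the human line.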

How the results depend on the processing

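Of 687 alternative values for the members, 608 kept direction and side of the threshold, 55 lost a call, 14 gained one and 10 changed sign; the cause was not tested. Members called in the line comparison under dabrafenib were 3, with DESeq2 1 and 1 to 5 with 1 library left out. In the DMSO line comparison they were 6, with a mean count of at least 50 it was 3 of 4 tested, and 6 to 7 with 1 library left out. In the A375-BIR response they were 0 throughout. In the A375 response they were 6, with DESeq2 1, with a mean count of at least 50 it was 2, thinned 1, and 1 to 6 with 1 library left out. For the difference of responses they were 2, with DESeq2 and thinned 1 each, and 1 to 4 with 1 library left out. Replicate numbers did not pair the libraries: same-numbered libraries correlated at -0.19 to 0.15, and fits with a replicate block called 2, 5, 0, 3 and 1 members in the 5 comparisons in this order.

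Signs changed without replicate 2 of A375-BIR with dabrafenib for PSMB8 between lines under dabrafenib (-0.14; range over 10 such fits up to 0.38) and, in the A375-BIR response, for HLA-B (-0.12), HLA-E (-0.076) and B2M (-0.13), whose highest values with another library left out were 0.42, 0.34 and 0.39. In that response PSMB9 was 0.018 and 0.071 without dabrafenib replicates 1 and 3 (lowest -0.46), and NLRC5 (highest 0.41) -0.58 without dabrafenib replicate 1 and -0.017 and -0.037 without DMSO replicates 1 and 3. PSMB8 in the A375 response was -0.036 without dabrafenib replicate 1 (highest 0.28). Thinned, TAP2 between lines under dabrafenib was -0.063, TAPBP 0.026 between lines with DMSO and 0.20 in the A375 response, and IFNAR2 0.054 between lines with DMSO.

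All genes called were 4374, 5298, 252, 3948 and 2313 in the 5 comparisons. They were 1764, 1895, 137, 1669 and 1133 where a mean count of 50 was asked for, and 2508, 1892, 85, 1447 and 642 thinned, where fewer genes or counts entered; with DESeq2 the last 3 were 106, 2485 and 1153, and the A375-BIR response had 125 with only the groups compared and 106 to 558 with 1 library left out. Fitting only the groups compared gives no value for the difference, nor does leaving out the A375 DMSO library for comparisons that use it. Depth limits genes of few counts such as HLA-C, PSMB8 and NLRC5.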
